A study of Homo sapiens with 4 samples.

Results

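The hexosamine pathway builds UDP-N-acetylglucosamine (UDP-GlcNAc), the sugar donor for N-glycans, hyaluronan and the O-GlcNAc mark on nuclear and cytoplasmic proteins. A glutamine-fructose-6-phosphate amidotransferase commits fructose 6-phosphate to the pathway, and an acetyltransferase, a mutase and a pyrophosphorylase then complete the donor. Colorectal cancer cells are known to run this branch of glucose and glutamine metabolism actively, and OGT hands the finished sugar to serine and threonine residues. Here 9 genes were followed, namely GFPT1, GFPT2, GNPDA1, GNPDA2, GNPNAT1, PGM3, UAP1, NAGK and OGT. They were chosen by name as rows of the deposited tables, with earlier results of these data known. All 9 were among the 15357 genes deposited and among the 11955 genes that passed the filter on low counts.

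The cells were RKO, a human colon cancer cell line. Lentivirus gave stable expression of a control shRNA in 2 samples labelled vector and of a hairpin against the CHD7 mRNA, shCHD7_2, in 2 samples. Only this hairpin is among the samples analysed here, so loss of CHD7 and any other action of the hairpin cannot be told apart, and the labels do not say whether replicates were separate cultures, so p-values may measure technical spread only. The libraries were made from RNA captured on oligo-dT beads, and in bulk RNA fewer cells with a transcript and less of it per cell cannot be told apart.

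Estimated counts summed to between 15734666 and 16068642 per sample. CHD7, a chromatin remodeller and the target of the hairpin, was at 8.05 and 8.50 FPKM in the vector samples and 5.65 and 5.34 in the shCHD7_2 samples. FPKM is the fragment count scaled for transcript length and library depth, and every level below is on that scale. Its log2 fold change was -0.74 (standard error, SE, 0.088; adjusted p = 4.2e-06 by the quasi-likelihood test of edgeR). Of the epithelial markers, EPCAM, KRT8 and KRT18 were present in every sample and CDH1 was at or near 0, between 0 and 0.01 FPKM. Of the colon markers, CDX2 had a mean of 5.10 FPKM while LGALS4 and CDH17 were near 0. The fibroblast markers COL1A1 and LUM and the endothelial markers PECAM1 and VWF were each at most 0.09 FPKM in any sample. CD68, a lysosomal protein often used as a macrophage marker, was the 1 leukocyte marker of 3 with values. It was at 529.5 and 495.0 FPKM in the vector samples and 602.0 and 611.1 in the shCHD7_2 samples, and its part in the results was not tested.

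After CHD7 knockdown, 4 of the 9 genes were lower and none was higher. They were both amidotransferases at the entry of the pathway (GFPT1 and GFPT2), GNPDA1, which runs the entry reaction in reverse, and UAP1, which completes UDP-GlcNAc. Each of the 4 fell by between 38.6% and 43.6% in the scaled counts of the edgeR test, not in FPKM. The 2 enzymes between the entry and the last step (GNPNAT1 and PGM3), the second deaminase GNPDA2, the salvage kinase NAGK and the transferase OGT did not pass the test. Calls needed both an adjusted p under 0.05 and a change of 1.5-fold or more. By this rule 2.88% of all genes tested were called, 1.37% lower and 1.51% higher. The adjusted p alone was passed by 11.5%, and by the same 4 of the 9. Because the 9 were chosen with earlier results known, setting them beside these shares is a description and tests nothing. In FPKM, both shCHD7_2 samples lay below both vector samples for these 4 genes and for 20.7% of all genes tested. At an unadjusted p under 0.05, 5 of the 9 genes were lower and 1 was higher in edgeR, and DESeq2 gave the same counts and called 4 lower and 0 higher. That unadjusted threshold was passed by 13.3% of all genes tested in the lower and 12.1% in the higher direction in edgeR, and by 9.21% and 7.57% in DESeq2.

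**Figure D1:**
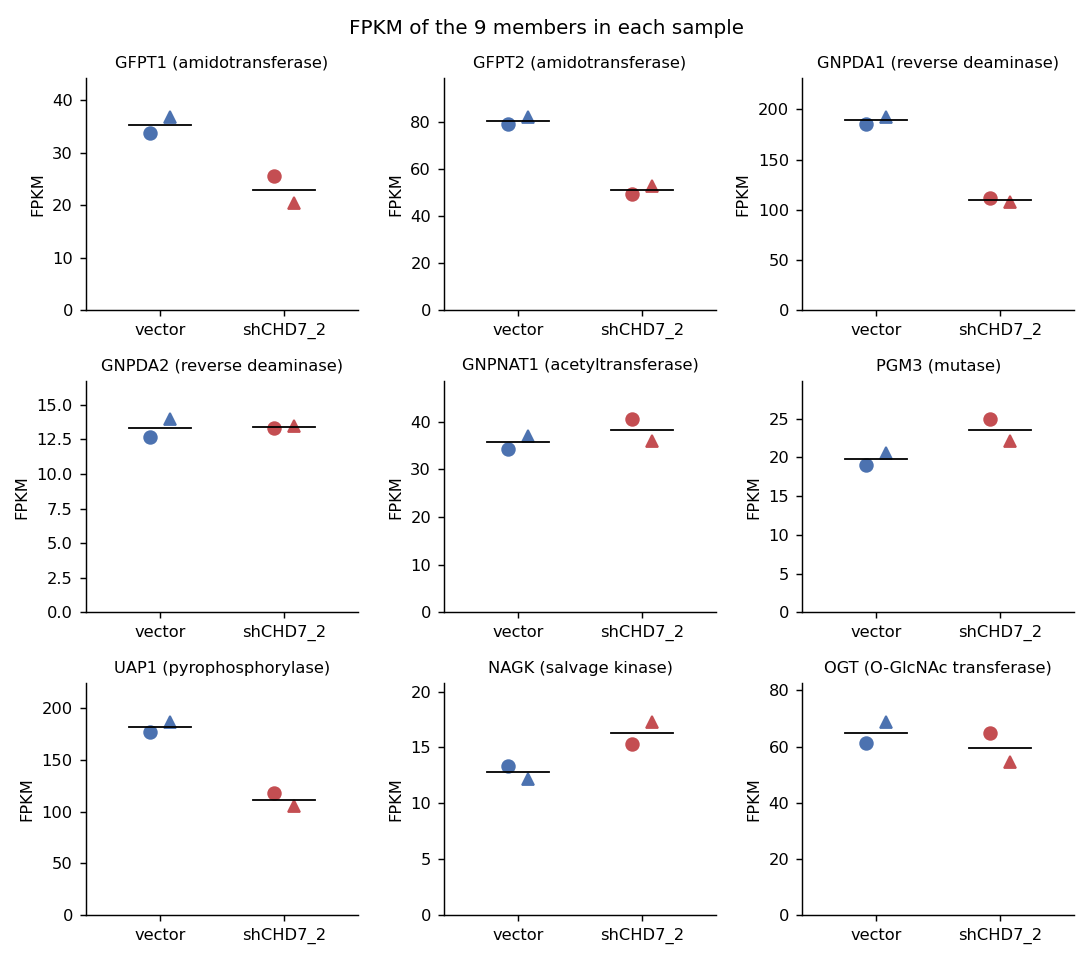
FPKM (y axis, each panel from 0) of the 9 genes in the 2 vector samples (blue) and the 2 shCHD7_2 samples (red), with replicate 1 as circles, replicate 2 as triangles and the mean as a line. GFPT1, GFPT2, GNPDA1 and UAP1 lie lower in both shCHD7_2 samples than in both vector samples, while GNPDA2, GNPNAT1 and OGT overlap.

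Of the 4 genes that fell, GFPT1, UAP1 and GNPDA1 carry short words in the longest annotated 3′ UTR. An earlier scan of these same data linked these words to lower expression. For GNPDA1 that region belongs to a transcript that ends inside its gene. The words are AGCTATT, the second word GAAGCTA, and as the third word GCTATTA, all searched on the transcript strand of the longest annotated 3′ UTR of each gene in GENCODE 29. The words are not independent, since each holds the letters GCTA and they can match the same bases. Among the 11691 tested genes that have such a region, 22.4% hold at least 1 of them, as do 68.4% of the 158 called lower and 14.9% of the 174 called higher. Because the words were picked for their link to falling genes here, their presence is given as a description and supports nothing. The genes that fell lie at chr2:69319769-69387254 (GFPT1), chr5:180300690-180353387 (GFPT2), chr5:141991749-142013041 (GNPDA1) and chr1:162561506-162599842 (UAP1) on GRCh38, so the 4 are spread over 3 chromosomes. The matches below are shown as stretches of 30 bases, 5′ to 3′, with the matching bases in capitals. They lie at chr2:69325924-69325953 and chr2:69322647-69322676 for GFPT1, chr1:162599488-162599517 for UAP1, chr5:142000843-142000872 for GNPDA1 and chr4:44703792-44703821 for GNPDA2 (GRCh38), on the plus strand for UAP1 and the minus strand for the other genes.
GFPT1, first: agaaagattctAGCTATTAttttctttaaa
GFPT1, second: ttggttaagagAGCTATTAcaggttttctc
UAP1: tgaactcttagAGCTATTgcaaacttccca
GNPDA1: tgtgcctgtttGAAGCTActgctgcctcca
GNPDA2: actggaagatcAGCTATTtcccaagcagct

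GFPT1 holds 5 such matches in a 3′ UTR of 6420 bases, of which the 2 printed join AGCTATT and GCTATTA into a single run. UAP1 holds 1 match in only 479 bases, GNPDA1 1 match in 1360 bases and GNPDA2 1 match in 4495 bases. The matches of GNPDA1 and GNPDA2 each lie in a transcript that ends inside its gene, whose level cannot be read from values per gene. GFPT2 fell as the other 3 genes did and its 3′ UTR of 874 bases holds none of the words. GNPNAT1, PGM3, NAGK and OGT, with 3′ UTRs of between 1297 and 4425 bases, hold none either.

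The entry of the pathway was lower at both of its genes. GFPT1, the broadly expressed amidotransferase, was at 33.7 and 36.8 FPKM in the vector samples and 25.5 and 20.5 in the shCHD7_2 samples. Both shCHD7_2 samples were below both vector samples, and the spread of the shCHD7_2 samples (SD 3.51, n = 2) was wider than that of the vector samples (SD 2.18, n = 2). In the count test its log2 fold change was -0.74 (SE 0.086, 95% interval -0.92 to -0.56, edgeR adjusted p = 2.8e-06). Some of the estimated counts of GFPT1 were not whole numbers, so part of its reads may be shared with another gene and is uncertain.

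GFPT2, the second amidotransferase, was the more abundant of the pair on the FPKM scale in every sample. It was at 78.9 and 82.1 FPKM in the vector samples and 49.5 and 52.7 in the shCHD7_2 samples, with no overlap. Its log2 fold change was -0.70 (SE 0.076, 95% interval -0.86 to -0.54, edgeR adjusted p = 1.0e-06). The intervals of GFPT1 and GFPT2 overlap over most of their length.

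Summed per sample, the amidotransferase step held 112.7 and 118.9 FPKM in the vector samples and 75.0 and 73.2 in the shCHD7_2 samples, a fall of the mean from 115.8 ± 4.43 (SD, n = 2) to 74.1 ± 1.22 (SD, n = 2). The groups do not overlap, and the exact two-sided permutation p was 0.333, the smallest that 2 samples against 2 can give. GFPT2 supplied 69.5% ± 0.721 (SD, n = 2) of the sum in the vector samples and 69.0% ± 4.23 (SD, n = 2) in the shCHD7_2 samples, a difference smaller than the spread between replicates (exact two-sided permutation p = 1.0). The composition of the step thus showed no difference beyond the spread, while its level was lower.

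The opposite conversion, a separate reaction that releases ammonia from glucosamine 6-phosphate and gives back fructose 6-phosphate, is carried by GNPDA1 and GNPDA2. GNPDA1 had the highest level of the 9 genes in the vector samples, at 185.5 and 192.4 FPKM, and was at 111.4 and 108.0 in the shCHD7_2 samples. The replicates of each group lay close together and the groups were well apart. Its log2 fold change was -0.83 (SE 0.072, 95% interval -0.98 to -0.68, edgeR adjusted p = 4.0e-08), which placed it at rank 25 of the 11955 genes by p.

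GNPDA2 was far lower, at 12.7 and 13.9 FPKM in the vector samples and 13.3 and 13.5 in the shCHD7_2 samples. The groups overlap, and the log2 fold change was -0.03 (95% interval -0.24 to 0.18, edgeR adjusted p = 0.89). This interval does not meet that of GNPDA1. GNPDA1 supplied 93.4% ± 0.261 (SD, n = 2) of the summed FPKM of the pair in the vector samples and 89.1% ± 0.287 (SD, n = 2) in the shCHD7_2 samples, a difference of -4.30 percentage points (exact two-sided permutation p = 0.333, the smallest possible). All estimated counts of both genes were whole numbers, so no division of reads between the pair is visible.

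The summed level of the pair was 202.2 ± 5.73 (SD, n = 2) FPKM in the vector samples and 123.0 ± 2.27 (SD, n = 2) in the shCHD7_2 samples. Summed mRNA levels were thus lower for the amidotransferases and for the deaminases. The ratio of summed amidotransferase FPKM to summed deaminase FPKM, computed after the values were seen, was 0.568 and 0.576 in the vector samples and 0.601 and 0.603 in the shCHD7_2 samples. That shift of 5.20% is small beside the falls of 36.0% and 39.2% in the sums themselves.

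**Figure D2:**
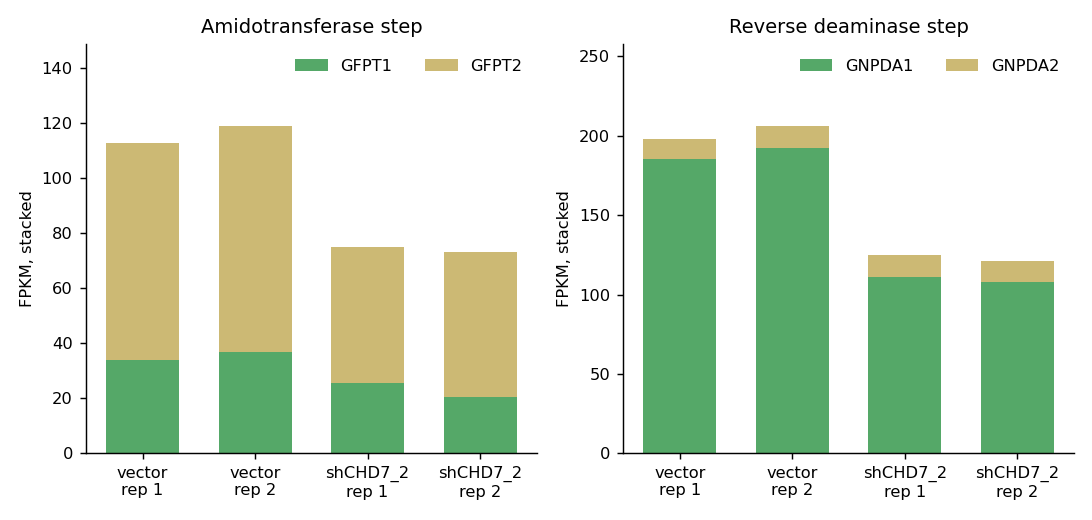
Stacked FPKM (y axis, from 0) of GFPT1 with GFPT2 and of GNPDA1 with GNPDA2, with 1 bar per sample. The amidotransferase bars drop from 112.7 and 118.9 to 75.0 and 73.2 with a like division between the 2 genes, and the loss in the deaminase bars is in GNPDA1.

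The 2 middle enzymes did not follow. GNPNAT1, which acetylates glucosamine 6-phosphate, was at 34.3 and 37.0 FPKM in the vector samples and 40.5 and 35.9 in the shCHD7_2 samples. The groups overlap, and the log2 fold change was 0.06 (95% interval -0.11 to 0.23, edgeR adjusted p = 0.70). PGM3, the phosphoacetylglucosamine mutase, was at 19.1 and 20.6 FPKM in the vector samples and 24.9 and 22.1 in the shCHD7_2 samples. Its FPKM groups do not overlap, which is also so for 54.5% of all genes tested. In the count test the log2 fold change of PGM3 was only 0.10 (95% interval -0.08 to 0.27, edgeR adjusted p = 0.50), whereas on the log2(FPKM + 0.1) scale it was 0.24 (adjusted p = 0.19 from limma). PGM3 counts were not whole in any sample, and the reason for the gap between the scales was not tested.

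UAP1, the pyrophosphorylase that joins UTP and N-acetylglucosamine 1-phosphate, was the second most abundant of the 9 genes in the vector samples. It was at 176.9 and 186.7 FPKM in the vector samples and 117.5 and 105.0 in the shCHD7_2 samples, with every shCHD7_2 value below every vector value. Its log2 fold change was -0.74 (SE 0.076, 95% interval -0.90 to -0.58, edgeR adjusted p = 4.7e-07). UAP1L1, its paralog, was at between 33.9 and 38.0 FPKM and had a log2 fold change of -0.01 (edgeR adjusted p = 0.94). It was named after its values were seen.

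NAGK, the kinase that salvages free N-acetylglucosamine, had the lowest mean of the 9 genes in the vector samples. It was at 13.3 and 12.2 FPKM in the vector samples and 15.3 and 17.3 in the shCHD7_2 samples. The groups do not overlap and the log2 fold change was 0.32, but its 95% interval of 0.09 to 0.56 stayed under a 1.5-fold change and the adjusted p was 0.069 from edgeR. Without replicate 1 of shCHD7_2 the log2 fold change was 0.40, and without replicate 2 it was 0.25.

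OGT, the enzyme that places O-GlcNAc on proteins, was at 61.2 and 68.8 FPKM in the vector samples and 64.8 and 54.5 in the shCHD7_2 samples. Replicate 1 of shCHD7_2 lay between the vector samples and replicate 2 below both. The log2 fold change was -0.21 (95% interval -0.38 to -0.03, edgeR adjusted p = 0.12). Without replicate 1 of shCHD7_2 it was -0.34 (edgeR adjusted p = 9.8e-04, under the 1.5-fold threshold), and without replicate 2 it was -0.09.

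**Figure D3:**
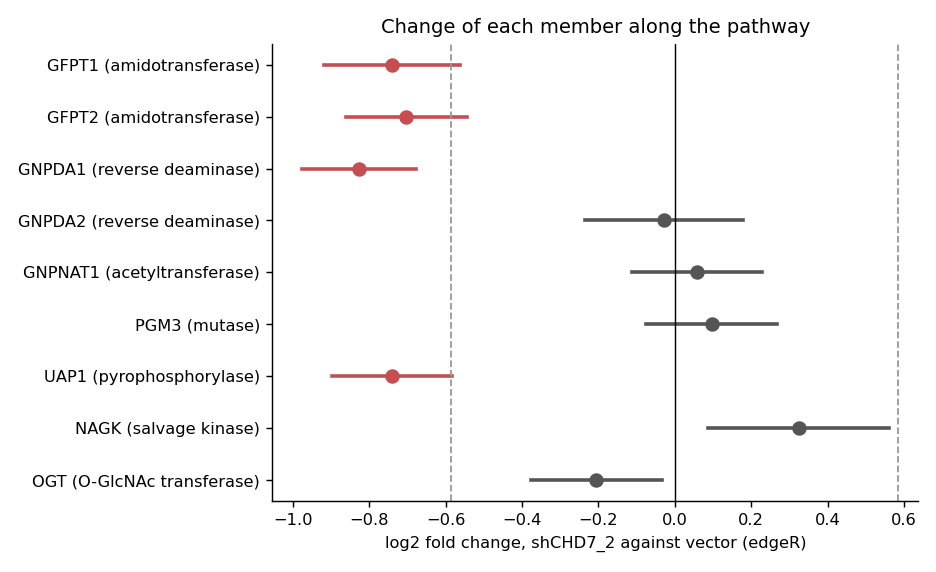
Log2 fold change of shCHD7_2 against vector (x axis) from edgeR for the 9 genes in pathway order, with 95% intervals as bars, called genes in red and a 1.5-fold change as dashed lines. GFPT1, GFPT2, GNPDA1 and UAP1 lie between -0.83 and -0.70, and the other 5 genes between -0.21 and 0.32.

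Promoter windows of the 2 isoenzyme pairs are shown because the amidotransferases fell together while the deaminases differed. They are RefSeq windows on GRCh38.p14, from 250 bases before to 50 bases after an annotated start, in lower case and 5′ to 3′ along the gene. Capitals mark any of 5 words, searched on both strands: the E-box CACGTG, which MYC-type factors are known to bind, a second E-box spelled CAGCTG, the GC box, spelled GGGCGG, the box with the letters CCAAT, and the cyclic AMP response word TGACGT. None of these words overlaps another in the windows printed. The windows are chr2:69387178-69387477 for GFPT1, chr5:180353287-180353586 for GFPT2, chr5:142012978-142013277 for GNPDA1 and chr4:44726507-44726806 for GNPDA2, all on the minus strand.
GFPT1: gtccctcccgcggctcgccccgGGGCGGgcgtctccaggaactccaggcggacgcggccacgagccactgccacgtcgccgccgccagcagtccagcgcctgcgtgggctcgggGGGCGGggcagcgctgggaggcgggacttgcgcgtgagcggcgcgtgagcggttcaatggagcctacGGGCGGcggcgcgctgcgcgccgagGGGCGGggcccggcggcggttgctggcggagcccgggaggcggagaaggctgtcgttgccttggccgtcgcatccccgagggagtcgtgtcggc
GFPT2: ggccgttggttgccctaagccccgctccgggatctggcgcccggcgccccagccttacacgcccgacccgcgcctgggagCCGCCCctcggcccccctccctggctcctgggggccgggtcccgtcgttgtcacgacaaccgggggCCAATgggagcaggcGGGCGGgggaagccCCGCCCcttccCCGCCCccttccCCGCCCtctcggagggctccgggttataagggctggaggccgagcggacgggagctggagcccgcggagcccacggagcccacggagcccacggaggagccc
GNPDA1: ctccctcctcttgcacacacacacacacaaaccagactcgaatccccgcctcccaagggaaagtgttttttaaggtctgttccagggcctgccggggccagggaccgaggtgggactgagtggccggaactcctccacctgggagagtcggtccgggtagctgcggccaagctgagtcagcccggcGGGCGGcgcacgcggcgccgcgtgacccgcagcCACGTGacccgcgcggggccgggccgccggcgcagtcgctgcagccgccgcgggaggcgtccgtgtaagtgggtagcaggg
GNPDA2: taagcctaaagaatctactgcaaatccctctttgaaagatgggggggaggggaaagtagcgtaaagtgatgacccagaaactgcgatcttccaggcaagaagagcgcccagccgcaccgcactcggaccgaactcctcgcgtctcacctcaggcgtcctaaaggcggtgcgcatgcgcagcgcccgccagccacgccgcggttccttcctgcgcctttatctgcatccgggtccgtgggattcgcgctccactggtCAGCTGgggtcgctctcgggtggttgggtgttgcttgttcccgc

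GFPT1 holds 4 GC boxes and GFPT2 5 with a CCAAT box, GNPDA1 holds 1 GC box and a CACGTG word that starts 31 bases before the start, and GNPDA2 holds a CAGCTG word and no GC box. Over all windows, CACGTG is in 7.26% of the 35116 promoters, CAGCTG in 17.9%, GGGCGG in 45.0%, CCAAT in 34.6% and TGACGT in 7.98%. Over the 13821 windows of tested genes the shares are 9.62% for CACGTG, 17.2% for CAGCTG, 66.9% for GGGCGG, 34.9% for CCAAT and 10.6% for TGACGT. Among the 9 genes, counted per gene over every annotated start and not per window, GGGCGG was found in 8, CCAAT in 4, CAGCTG in 3, and CACGTG and TGACGT in 1 each, the last in UAP1. GC boxes are present both in genes that fell and in genes that did not pass the test, GNPNAT1 with 7 of them included. These letters describe the windows only and say nothing of binding.

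Genes that feed the pathway, recover its sugars or spend its product were read from 3 lists. The supply list covers glucose and glutamine uptake, hexokinases and the supply of sugar phosphates, UTP and acetyl-CoA. Of its 15 genes, all tested, 0 were called lower and 1 was called higher, with a median log2 fold change of -0.07 beside 0.00056 over all genes tested. No supply gene was lower at an adjusted p under 0.05 alone. GPI, which makes and uses fructose 6-phosphate, was at 158.7 and 151.9 FPKM in the vector samples and 150.4 and 153.5 in the shCHD7_2 samples (log2 fold change -0.07, edgeR adjusted p = 0.55). SLC1A5, a glutamine transporter, had a log2 fold change of -0.14 (edgeR adjusted p = 0.26).

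The called supply gene was HKDC1, a hexokinase of very low level. It had 4 counts in each vector sample and 29 and 43 in the shCHD7_2 samples, or 0.07 FPKM in both vector samples and 0.55 and 0.82. Its log2 fold change was 3.10 (SE 0.44, edgeR adjusted p = 4.2e-05). HK1 and HK2, the main hexokinases of these libraries, were between 53.98 and 87.8 FPKM and did not pass the test (log2 fold changes -0.19 and -0.21, edgeR adjusted p = 0.099 and 0.065), and they were named after their values were seen.

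The turnover list holds 9 genes that remove N-acetylglucosamine from proteins or glycans or take it apart, and 0 of them were called. At an adjusted p under 0.05 without the fold threshold, 2 were lower and 2 higher, with a median of 0.04 for the list. OGA, the hydrolase that removes O-GlcNAc, was at 50.3 and 55.2 FPKM in the vector samples and 47.1 and 44.0 in the shCHD7_2 samples. Both shCHD7_2 samples were below both vector samples, and the log2 fold change was -0.25 (95% interval -0.41 to -0.09, edgeR adjusted p = 0.038), under the 1.5-fold threshold. Thus neither OGT nor OGA was called. AMDHD2, a deacetylase of N-acetylglucosamine 6-phosphate, was among the genes higher by the adjusted p alone, with a log2 fold change of 0.34, and was named after its values were seen.

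Of the 19 genes that use UDP-GlcNAc or act beside it, 1 was called lower and 0 higher, with a median of 0.02. The called gene was HAS2, a hyaluronan synthase, which polymerises UDP-GlcNAc with UDP-glucuronic acid. It was at 26.1 and 26.5 FPKM in the vector samples and 16.3 and 14.2 in the shCHD7_2 samples, with a log2 fold change of -0.83 (SE 0.090, edgeR adjusted p = 9.8e-07). MGAT4B, which branches N-glycans, was at 70.4 and 62.6 FPKM in the vector samples and 86.9 and 95.7 in the shCHD7_2 samples. Its log2 fold change of 0.41 passed the adjusted p (0.0016 in edgeR) but not the fold threshold. NANS, a sialic acid synthase, had a log2 fold change of -0.07 (edgeR adjusted p = 0.65). The 2 genes lower by the adjusted p alone, MGAT1 at -0.39 and MGAT4A at -0.49, also act in N-glycan branching and were named after their values were seen. Without replicate 1 of shCHD7_2, MGAT4A passed both thresholds and 2 genes of the list were called.

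**Figure D4:**
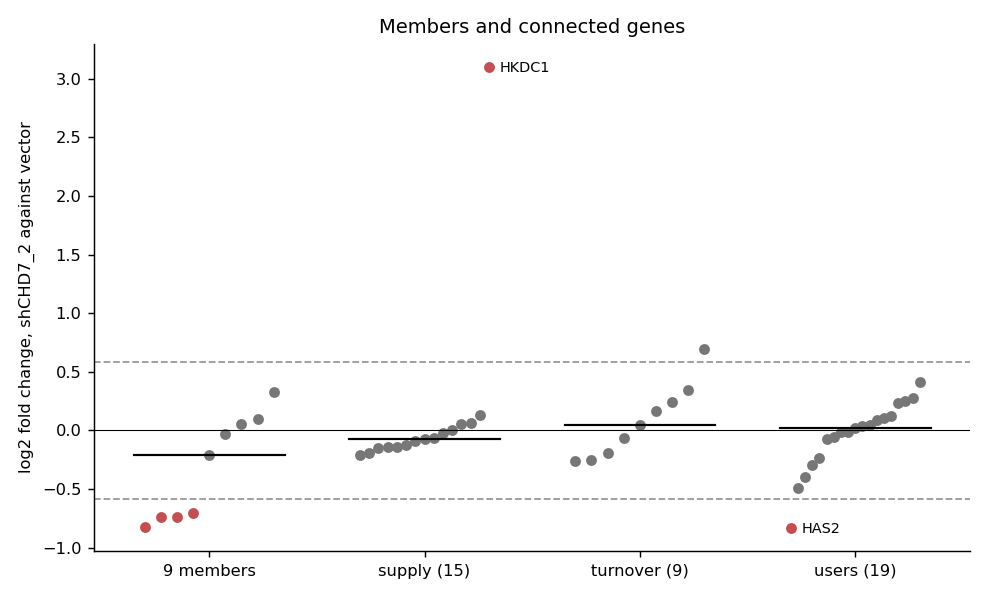
Log2 fold change of shCHD7_2 against vector (y axis) from edgeR for the 9 genes and for the supply, turnover and users lists, with 1 point per gene, called genes in red, the median of each list as a black line and a 1.5-fold change as dashed lines. The 4 called pathway genes and HAS2 lie below the lower dashed line, and HKDC1 lies at 3.10.

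On all deposited genes in FPKM, with no minimum level, limma on log2(FPKM + 1) called 0 of the 15357 genes and so 0 of the 9, with 3174 genes and 5 of the 9 at an unadjusted p under 0.05. The changes of GFPT1, GFPT2, GNPDA1 and UAP1 were then -0.60, -0.65, -0.78 and -0.71. With a minimum mean FPKM of 1, limma called all 4 of them lower.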

How the data were processed

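RNA-seq of 2 vector and 2 shCHD7_2 samples of RKO cells was used. The authors deposited expected counts (estimated reads per gene, not normalized) and FPKM values (normalized by the authors for length and depth) for 15357 genes. The submitters' processing notes name Bowtie2, RSEM, DESeq2 and hg38, without roles or versions, and the annotation and filters are not given in the sources used here. Reads divided between similar genes can move counts between them.

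In R 4.3.3, expected counts were rounded, filtered with filterByExpr, scaled by TMM and tested with the quasi-likelihood test of edgeR 4.0.16 over 11955 genes, with Benjamini-Hochberg adjustment. Standard errors came from the F statistic. Sums of FPKM over isoenzymes were compared by an exact permutation test in scipy 1.17.1. Replicates of a group differed by more than counting noise (chi-square of 3.94 and 6.05 per gene). Gene positions and 3′ UTRs are from GENCODE 29 on GRCh38, and promoters from RefSeq, with all 9 genes matched.

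Named genes were the 9 members, CHD7, every called gene of the 3 lists and the 2 uncalled genes of highest FPKM per list. Some genes of the turnover list are not reported here by name. Members, lists and words were chosen with earlier results of these data known. The fits were tested on simulated data. Alternatives were DESeq2 1.42.0, other scalings, no count filter, no fold threshold, limma 3.58.1 on log2(FPKM + 1 or 0.1), a replicate block and leaving out each sample. A crossed pairing was added after the data were seen.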

Additional observations from a re-analysis of the deposited data

How the results depend on the processing

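GFPT1, GFPT2, GNPDA1 and UAP1 kept their direction under all 14 alternatives each and their call under 13, the exception being limma on FPKM without a filter, where 0 of the 9 genes, 0 supply genes, 0 users and 0 genes in all were called and CHD7 was at -0.51 (adjusted p = 0.099 from limma). With each sample left out, 4 were called lower each time, and the lone sample of an arm is assumed to vary like the other group. The count over all genes was 344 in the main fit and 219 in DESeq2. It was 141 without a count filter, 1373 without a fold threshold and 169 for limma on log2(FPKM + 1). Without a count filter the edgeR adjusted p rose to 0.041 for GFPT1, 0.020 for GFPT2, 0.011 for GNPDA1 and 0.022 for UAP1. In limma on log2(FPKM + 0.1) the adjusted p of these genes ran from 0.0056 (GNPDA1) to 0.037 (GFPT1). Without a fold threshold 4 turnover and 4 user genes were called. That setting is the main fit under a looser rule, so it could neither change a direction nor remove a call. HKDC1 fell under the FPKM minimum, leaving 0 supply genes called in limma, and CHD7 missed the fold threshold there, at -0.51 and -0.58. GNPDA2 changed sign, to 0.015 with library totals, 0.0090 in limma on log2(FPKM + 1) with and without a filter and 0.0097 with 0.1 added, and ran from -0.098 to 0.042 with each sample left out (above 0 without vector replicate 2), while GNPNAT1 ran from -0.028 (without shCHD7_2 replicate 1) to 0.137. On TMM-scaled CPM the log2 ratio was -0.72 for the amidotransferases, -0.76 for the deaminases and 0.041 for their ratio (-0.64, -0.72 and 0.073 in FPKM). Leave-one-out counts of user genes were 1 to 2.

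The shared replicate numbers did not pair the samples (correlation of deviations -0.252 across genes). With the replicate block 329 genes were called, 4 of the 9 lower, and no other call of the 9 changed. With the crossed pairing 423 genes and the same number of the 9, 4, were called. NAGK (edgeR adjusted p = 0.0039) and OGT (1.2e-04) then passed the adjusted p but not the fold threshold. With 2 samples per group, the crossed pairing has the opposite sign of correlation, so its block follows the spread of these same samples. It put 4842 of the 11955 genes tested at an unadjusted p under 0.05, beside 3035 in the main edgeR fit. The passes of NAGK and OGT under it therefore support nothing. With library totals NAGK also passed the adjusted p but not the fold threshold (edgeR adjusted p = 0.035). Genes of few counts, such as HKDC1, are limited by depth.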
